A study of Mus musculus with 6 samples.

Results

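The genes of the proteasome were measured in lung tumors and normal lung of RPM mice, which model small cell lung cancer. The members were chosen by symbol alone, as every row of the deposited count table that begins with Psm, then a letter from a to g, then a digit. This gave 50 of 22477 gene rows, and all 50 passed the filter on low counts. They comprised 5 genes of the immunoproteasome and its PA28 activator, 14 of the constitutive core, 17 of the 19S regulatory particle, 10 other regulators and assembly chaperones, and 4 that are set apart because they are tissue-restricted, a copy of another gene or no subunit at all.

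RNA came from 4 RPM lung tumors and from 2 samples of normal lung, each of a different animal. All 6 carried the same genotype, with floxed Rb1 and Trp53 (p53 fl/fl) and a Cre-activated Myc T58A allele (Myc lsl/lsl), and all 6, the normal samples included, are labelled with Ad5CGRP-Cre. This adenovirus carries Cre under a CGRP promoter, which directs it to pulmonary neuroendocrine cells, and was given through the trachea at 8 weeks of age, per the labels' protocols. Age at collection is not given in the sources used here, and although the protocols describe entinostat and anti-PD-1 arms, no label places one of these libraries in such an arm. The libraries are called tumor 3, 4, 5 and 6 and normal 1 and 2 after their titles.

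The proteasome is the protease that degrades proteins tagged with ubiquitin. Its barrel-shaped core is built of rings of alpha and beta subunits, and only Psmb5, Psmb6 and Psmb7 among the standard beta subunits cut peptide bonds. The 19S particle caps the core, binds ubiquitin chains, removes them and unfolds the substrate with a ring of ATPases. Interferon gamma and immune cell identity bring in the inducible catalytic subunits Psmb8, Psmb9 and Psmb10 in place of Psmb5, Psmb6 and Psmb7, and this immunoproteasome makes peptides that suit presentation by class I molecules of the major histocompatibility complex. Psme1 and Psme2 form PA28, an activator that docks onto the core in place of the 19S cap.

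Total counts ran from 54735438 to 70817440 in the tumors and from 91049413 to 99122494 in normal lung. Rn45s, Rpph1 and Rmrp, RNAs without a poly(A) tail, took 5.46% to 13.9% of counts in tumors and 0.238% to 0.55% in normal lung. All 8 neuroendocrine markers were higher in tumors and all 6 lung epithelial and all 6 endothelial markers were lower, which fits the labels of both tissues. Markers of leukocytes, which express the immunoproteasome at rest, summed to 1140, 668, 692 and 231 CPM (counts scaled to the TMM-adjusted size of each library) in tumors 3 to 6, against 5360 and 5010 CPM in normal 1 and 2, and 10 of the 12 were lower by the test. Lyz2 alone made up most of each sum. It stood at 1030, 590, 613 and 176 CPM in tumors 3 to 6 and at 4950 and 4550 CPM in normal lung. Nkg7 was the one leukocyte marker with no count in a library, tumor 4.

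The 3 inducible catalytic genes were lower in tumors, the whole constitutive core was higher, and the 19S particle rose by less. By the edgeR quasi-likelihood test at an adjusted p under 0.05, 0 of the 5 immunoproteasome and PA28 genes were higher and 3 were lower. All 14 core genes were higher, as were 14 of 17 genes of the 19S particle and 7 of the 10 other regulators and chaperones, and none in these 3 classes was lower. The median log2 fold change was -1.23 for the immunoproteasome and PA28 genes, 1.56 for the core, 0.73 for the 19S particle and 0.83 for the other regulators and chaperones, against 0.02 over the 18027 genes tested. The background in this contrast is wide, since 63.9% of all tested genes were called, 31.3% as higher and 32.6% as lower.

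**Figure D1:**
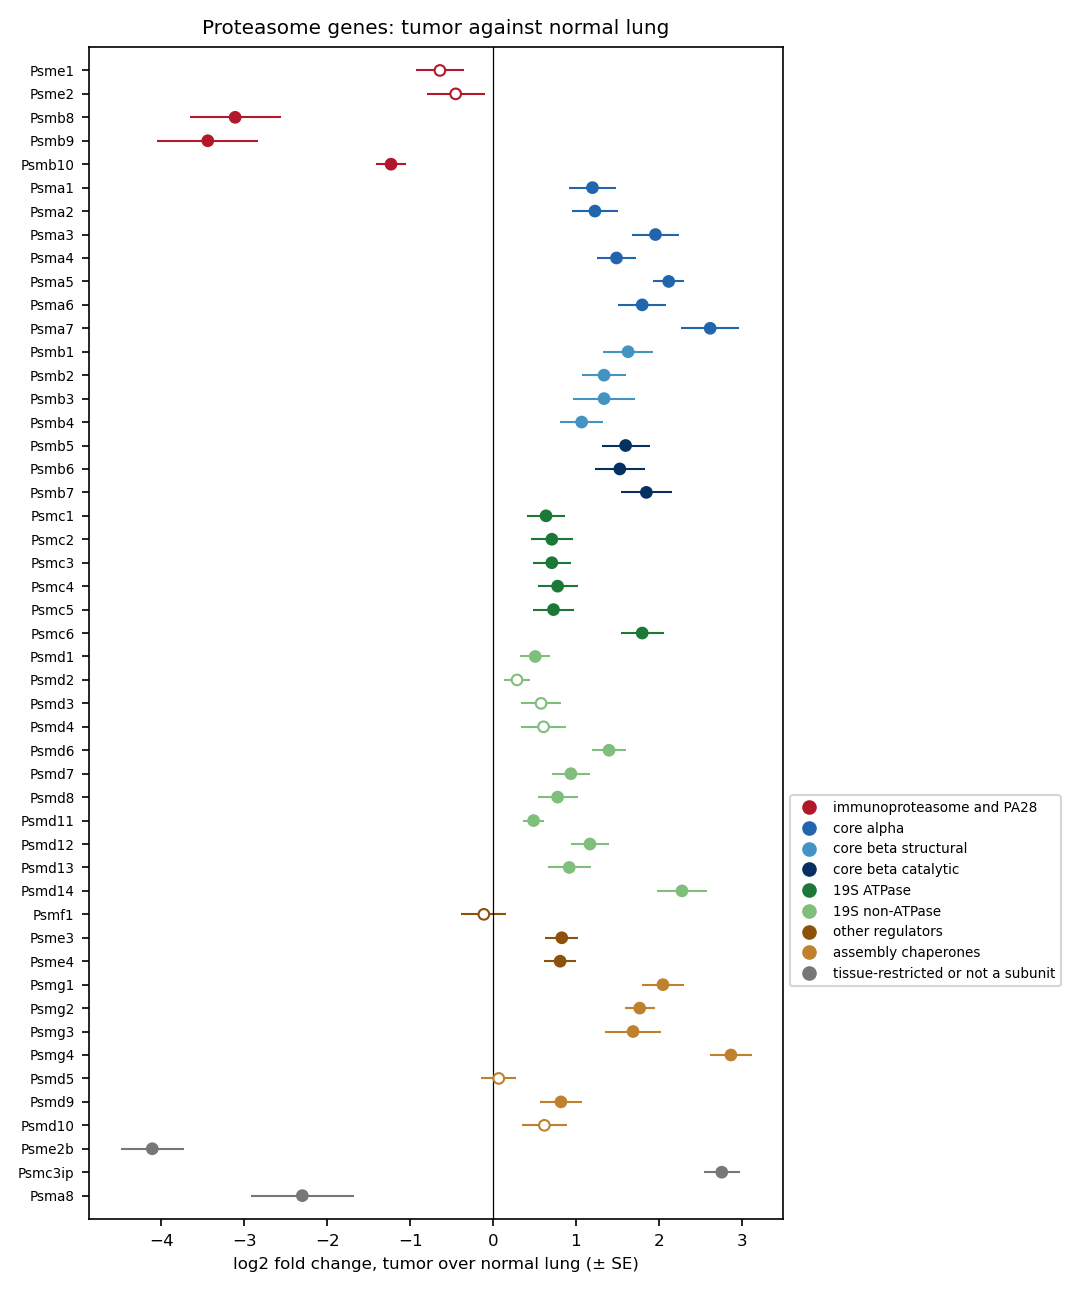
Log2 fold change of each proteasome gene, tumor over normal lung, with its standard error (4 tumor and 2 normal libraries). Filled points passed the test at an adjusted p under 0.05 and open points did not. Psmb8, Psmb9 and Psmb10 lie left of 0 and all 14 core genes lie right of 1. Psmb11 is left out because its normal libraries held 0 counts.

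Psmb8, the inducible counterpart of Psmb5, stood at 15.4, 5.4, 6.85 and 3.37 CPM in tumors 3 to 6 and at 64.7 and 69.3 CPM in normal 1 and 2. Every tumor was far below both normal libraries, at 7.76 ± 5.30 CPM (SD, n = 4) against 67.0 ± 3.25 CPM (SD, n = 2) on average. The log2 fold change was -3.11 ± 0.55 (SE, adjusted p = 0.00276). In whole tissue, fewer cells of a type and less RNA per cell cannot be told apart, which holds for each value here.

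Psmb9, the inducible counterpart of Psmb6, had 5.31, 1.65, 2.54 and 0.972 CPM in tumors 3 to 6, against 27.9 and 29.1 CPM in normal lung. At -3.44 ± 0.61 (SE; adjusted p = 0.00293) its log2 fold change was the lowest of the 3. In GRCm38 gene models its exons overlap those of Tap1 on the other strand, and the strand setting of the counts is not given, so its reads are uncertain. Psmb8 and Psmb9 were both highest in tumor 3 and lowest in tumor 6. Exons of Psmb8, Psme1, Psmb7, Psma4, Psma5, Psmc3, Psmd3 and Psmd13 also overlap a gene on the other strand and are likewise uncertain. Those of Psmb5, Psmd1 and Psmg3 overlap a gene on the same strand and are uncertain whatever the strand setting.

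Psmb10, the inducible counterpart of Psmb7, fell by less and varied less, at 26.8, 21.0, 19.2 and 22.7 CPM in tumors 3 to 6 against 50.6 and 54.7 CPM in normal lung. Its log2 fold change was -1.23 ± 0.18 (SE, adjusted p = 0.00121). The highest tumor was 1.39 times the lowest for Psmb10, against 4.58 times for Psmb8 and 5.46 times for Psmb9, and a median of 1.79 times over all tested genes. Psmb10 was lowest in tumor 5, whereas Psmb8 and Psmb9 were lowest in tumor 6. All 3 calls held under each alternative listed in the processing section, with each library left out in turn.

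The PA28 genes changed in the same direction as the inducible catalytic genes, but by less, and neither was called. Psme1, PA28 alpha, had 86.1, 75.8, 58.3 and 40.9 CPM in tumors 3 to 6 and 100 and 103 CPM in normal lung, so every tumor lay below both normal libraries. That held for 4 of the 5 genes, all but Psme2, as it did for 39.8% of all tested genes. The log2 fold change of Psme1 was -0.64 ± 0.29 (SE, adjusted p = 0.0921). Psme2, PA28 beta, had 82.1, 49.3, 47.7 and 31.3 CPM in tumors against 67.9 and 75.9 CPM in normal lung, with tumor 3 above both, at -0.45 ± 0.35 on the log2 scale (SE; adjusted p = 0.293). Of all the alternatives, only the fit without tumor 3, the highest tumor for both, called them. In that fit Psme1 was at -0.80 (adjusted p = 0.0479) and Psme2 at -0.74 (adjusted p = 0.038), and 5 of the 5 genes were called lower. All 5 genes of the class were highest in tumor 3, which also had the highest leukocyte marker sum, and 4 of the 5 were lowest in tumor 6, which had the lowest. Tumor 6 also had the lowest sum of lung epithelial markers, 73.3 CPM against 430 to 646 CPM in the other tumors. The same held for endothelial markers, at 49.3 CPM against 77.7 to 153 CPM. Tumor 3 was the highest in neither sum. The part of leukocytes or of other lung cells in these levels was not tested.

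**Figure D2:**
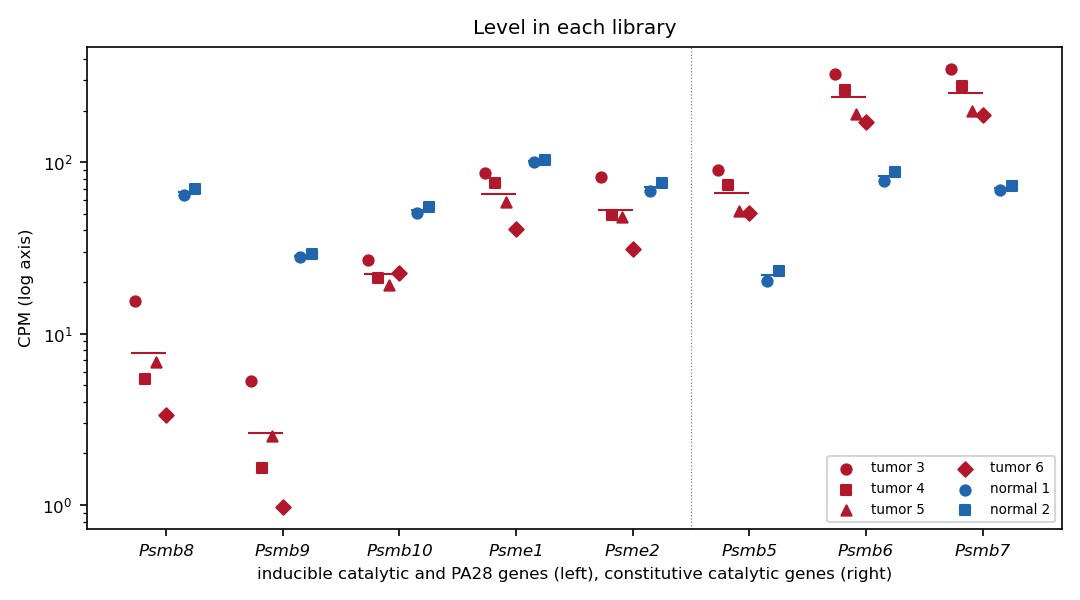
CPM on a log axis in each tumor (red) and normal library (blue) for the inducible catalytic and PA28 genes on the left and the constitutive catalytic genes on the right, with a line at each group mean. For Psmb8 and Psmb9 the tumors spread over a wider range than for Psmb10, and Psme2 is the one gene whose groups overlap.

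The constitutive catalytic genes moved the other way. Psmb5, the chymotrypsin-like subunit, had 90.3, 73.3, 51.6 and 50.3 CPM in tumors 3 to 6 against 20.4 and 23.3 CPM in normal lung, which gave 1.60 ± 0.29 on the log2 scale (SE; adjusted p = 0.00337). Psmb6, the caspase-like subunit, had 326, 264, 192 and 172 CPM in tumors against 77.8 and 87.7 CPM, a change of 1.53 ± 0.30 (SE, adjusted p = 0.00456). Psmb7, the trypsin-like subunit, had 350, 280, 198 and 189 CPM in tumors against 68.6 and 72.3 CPM, a change of 1.85 ± 0.31 (SE, adjusted p = 0.00212). In each of the 3 every tumor was above both normal libraries, as in 37.4% of all tested genes. The order was tumor 3, 4, 5 and 6 from high to low.

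Within one library the ratio of an inducible gene to its constitutive partner needs no scaling between libraries. The log2 ratio of Psmb8 to Psmb5 counts was -2.55, -3.76, -2.91 and -3.90 in tumors 3 to 6, against 1.66 and 1.57 in normal 1 and 2, a difference of -4.90 or 29.8-fold lower. The log2 ratio of Psmb9 to Psmb6 was -5.94, -7.31, -6.23 and -7.45 in tumors against -1.48 and -1.59 in normal lung, a difference of -5.20. The log2 ratio of Psmb10 to Psmb7 was -3.71, -3.74, -3.36 and -3.06 in tumors against -0.44 and -0.40 in normal lung, a difference of -3.04. The groups did not overlap in any of the 3 pairs. A two-sided exact permutation test gave p = 0.0667 for each, also after adjustment over the 3 pairs, and this is the smallest p that 4 against 2 libraries allow.

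Divided by exon length, which makes levels of different genes comparable, Psmb8 made up 8.61%, 3.90%, 6.82% and 3.56% of the summed Psmb8 and Psmb5 level in tumors 3 to 6, against 63.6% and 62.1% in normal lung. Psmb9 made up 0.952%, 0.368%, 0.777% and 0.333% of its pair in tumors, against 17.5% and 16.4% in normal lung. Psmb10 made up 6.35%, 6.23%, 7.92% and 9.62% of its pair in tumors, against 39.5% and 40.1% in normal lung. Each tumor thus held at least 10 times as much Psmb5 as Psmb8 per length, whereas normal lung held more Psmb8 than Psmb5. Exon lengths came from GRCm38 models, which are not those of the authors' mm9 counts, so the shares depend on that choice.

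**Figure D3:**
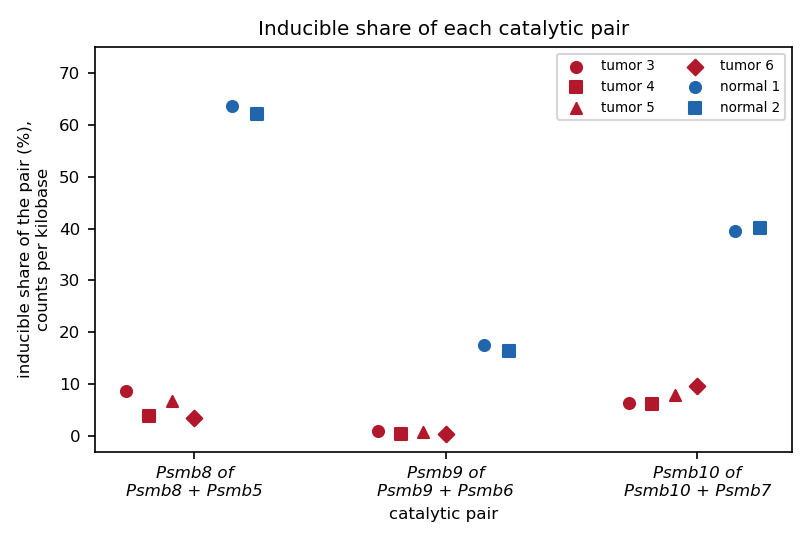
Share of the inducible gene in each catalytic pair, in percent of the pair's counts per kilobase of exon, for each tumor (red) and normal library (blue). Every tumor lies below 10% in every pair, and the normal libraries lie between 16.4% and 63.6%.

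The promoters of 5 of the catalytic genes, all but Psmb7, are shown because the members of a pair moved in opposite directions. The sequences are from RefSeq on GRCm38.p6, which gave a promoter for 42 of the 50 members, and cover the 250 bases before the start on the gene's own strand. Psmb8 lies at chr17:34197945-34198194 on the plus strand, Psmb5 at chr14:54617996-54618245 on the minus strand, Psmb9 at chr17:34187331-34187580 on the minus strand, Psmb6 at chr11:70525107-70525356 on the plus strand and Psmb10 at chr8:105938393-105938642 on the minus strand. Psmb9 and Psmb8 are neighbours of Tap1 and Tap2 in the class II region of the major histocompatibility complex. Capitals mark matches, on either strand, to the motifs searched.
Psmb8: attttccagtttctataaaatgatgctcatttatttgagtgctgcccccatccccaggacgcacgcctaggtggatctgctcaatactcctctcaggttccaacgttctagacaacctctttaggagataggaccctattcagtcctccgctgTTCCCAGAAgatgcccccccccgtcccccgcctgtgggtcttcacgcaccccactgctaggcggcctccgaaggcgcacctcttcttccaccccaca
Psmb5: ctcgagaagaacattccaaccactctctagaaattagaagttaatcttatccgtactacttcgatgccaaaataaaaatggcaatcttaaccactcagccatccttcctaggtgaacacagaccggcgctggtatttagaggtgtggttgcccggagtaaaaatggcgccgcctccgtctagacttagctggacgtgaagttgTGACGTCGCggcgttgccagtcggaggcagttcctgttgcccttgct
Psmb9: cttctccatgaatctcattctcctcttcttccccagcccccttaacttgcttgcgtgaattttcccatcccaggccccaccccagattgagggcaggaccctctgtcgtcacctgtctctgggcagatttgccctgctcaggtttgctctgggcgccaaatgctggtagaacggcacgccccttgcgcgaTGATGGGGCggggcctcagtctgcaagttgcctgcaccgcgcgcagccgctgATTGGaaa
Psmb6: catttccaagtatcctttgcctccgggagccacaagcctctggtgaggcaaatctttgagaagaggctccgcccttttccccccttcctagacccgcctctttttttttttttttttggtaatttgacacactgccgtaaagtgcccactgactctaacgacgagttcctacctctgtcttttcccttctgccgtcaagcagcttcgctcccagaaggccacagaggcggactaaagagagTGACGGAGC
Psmb10: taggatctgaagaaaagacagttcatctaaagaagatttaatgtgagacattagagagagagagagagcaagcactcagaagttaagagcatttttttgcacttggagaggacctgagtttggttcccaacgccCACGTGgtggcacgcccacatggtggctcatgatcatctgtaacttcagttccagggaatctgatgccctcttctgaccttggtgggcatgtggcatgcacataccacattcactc

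The motifs were the E-box CACGTG, the NF-Y box CCAAT, the antioxidant response element core TGANNNNGC, the interferon-stimulated response element core GAAANNGAAA, the STAT site TTCNNNGAA and the NF-kB site GGGANNNNCC. Psmb8 held a STAT match, which 7.18% of all 27025 promoters of this length also held. An antioxidant response element core was in Psmb5 and Psmb6, which rose, and in Psmb9, which fell, and in all it was in 5 of the 11 core promoters in the table and 35.1% of all promoters. Psmb9 also held an NF-Y box, which was in 6 of the 11 core promoters and in 34.5% of all, and Psmb10, which fell, held an E-box. The interferon element, present in 3.04% of all promoters, was in none of the 5 immunoproteasome and PA28 promoters, nor was the NF-kB site, present in 17.3% of all. Of the members that rose, 29 had a promoter in the table, with an antioxidant core in 37.9%, an NF-Y box in 34.5%, an NF-kB site in 27.6%, an E-box in 10.3%, an interferon element in 6.90% and a STAT site in 3.45%. Over all promoters the E-box was in 6.05%, and the other shares are those given above. These are matches of letters in a window and not tested sites.

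The 7 alpha subunits, which form the outer rings and the gate of the core, all rose, by 1.20 to 2.62 on the log2 scale. Psma7 changed most, with 614, 680, 364 and 379 CPM in tumors 3 to 6 against 79.4 and 86.1 CPM in normal lung (log2 fold change 2.62 ± 0.35, SE, adjusted p = 0.000845). Psma5 had 217, 226, 166 and 188 CPM in tumors against 45.6 and 46.3 CPM (2.12 ± 0.19, SE, adjusted p = 0.000185). Psma3 had 420, 471, 260 and 331 CPM in tumors against 93.0 and 96.9 CPM (1.96 ± 0.28, SE, adjusted p = 0.00116). In these 3 genes tumor 4 was the highest library and tumor 5 the lowest of the tumors.

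The structural beta subunits rose by 1.07 to 1.63. Psmb1 had 419, 400, 242 and 249 CPM in tumors 3 to 6 against 103 and 109 CPM in normal lung (1.63 ± 0.30, SE, adjusted p = 0.00355). Psmb2 had 169, 194, 112 and 121 CPM in tumors against 54.9 and 62.9 CPM (1.34 ± 0.27, SE, adjusted p = 0.00518), and missed the threshold without normal 1 (1.23, adjusted p = 0.053). Psmb4 had 252, 209, 151 and 151 CPM in tumors against 88.4 and 93.0 CPM (1.07 ± 0.26, SE, adjusted p = 0.0107), and missed it without normal 1 (1.02) or normal 2 (1.09). The groups of all 14 core genes were apart, with every tumor above both normal libraries, as in 37.4% of all tested genes. Without normal 1 the test called 9 of the 14 core genes, and without normal 2 it called 10.

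The core moved as a block across tumors. Its 14 genes summed to 4230, 4210, 2610 and 2700 CPM in tumors 3 to 6, or 3440 ± 908 CPM (SD, n = 4), against 1040 and 1110 CPM in normal lung, or 1070 ± 46.9 CPM (SD, n = 2). Tumors 3 and 4 were above tumors 5 and 6 in 14 of 14 core genes and in 15 of 17 genes of the 19S particle, a split picked after the values were seen, against 19.3% of all tested genes. Tumors 3 and 4 also had the largest share of RNAs without a tail, 13.9% and 11.8% against 5.46% and 9.32% in tumors 5 and 6, and TMM factors of 0.948 and 0.931 against 1.10 and 1.02. The part of these in the difference was not tested. The inducible catalytic sum ran 47.5, 28.1, 28.6 and 27 CPM in the same tumors, so tumor 4 was high for the core and not for the inducible genes.

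**Figure D4:**
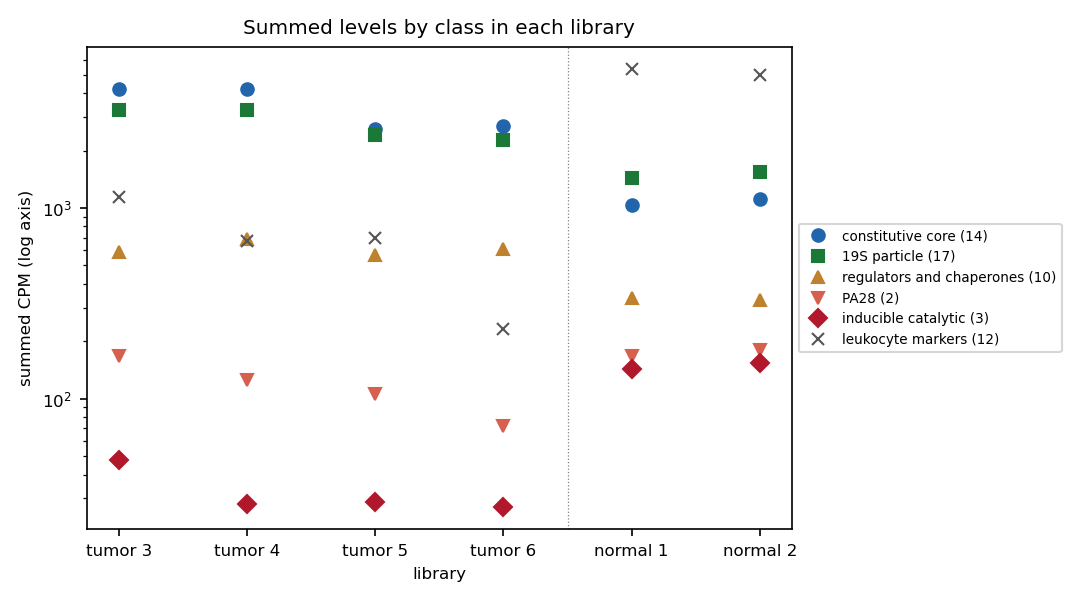
Summed CPM on a log axis of the genes of each class, and of 12 leukocyte markers, in each tumor and normal library (number of genes in brackets). Lyz2 makes up most of the leukocyte marker sum. The core sum stands at 2610 to 4230 CPM in tumors and at 1040 and 1110 CPM in normal lung, where the inducible catalytic sum stands at 27 to 47.5 CPM in tumors and 143 and 153 CPM in normal lung.

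The 19S particle rose less than the core. Its 17 genes summed to 3250, 3260, 2420 and 2260 CPM in tumors 3 to 6 against 1440 and 1540 CPM in normal lung, so the ratio of group means was 1.88, against 3.20 for the core. Among the 6 ATPases, 5 rose by 0.64 to 0.78 on the log2 scale and Psmc6 stood apart, with 432, 380, 273 and 271 CPM in tumors against 98.4 and 95.8 CPM (1.80 ± 0.26, SE, adjusted p = 0.00117). Psmc4 had 140, 137, 125 and 91.7 CPM in tumors against 59.1 and 84.5 CPM (0.78 ± 0.24, SE, adjusted p = 0.0273), and missed the threshold without normal 1 (0.53), tumor 3 (0.72) or tumor 5 (0.78). Psmc3 had 242, 234, 181 and 154 CPM in tumors against 121 and 126 CPM (0.71 ± 0.23, SE, adjusted p = 0.0289), and missed it without normal 1 (0.67) or normal 2 (0.73).

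Of the 11 other 19S subunits 8 rose and 3 did not pass. Psmd14, the deubiquitinase that strips ubiquitin chains from the substrate, rose most, at 421, 301, 258 and 231 CPM in tumors 3 to 6 against 57.5 and 67.4 CPM in normal lung (2.28 ± 0.30, SE, adjusted p = 0.000768). Its lowest tumor was thus more than 3 times above the higher normal library. Psmd6, a subunit of the lid, had 181, 144, 125 and 121 CPM in tumors against 52.4 and 55.7 CPM (1.40 ± 0.21, SE, adjusted p = 0.00146). Psmd12, also of the lid, had 144, 165, 111 and 105 CPM in tumors against 56.1 and 61.0 CPM (1.17 ± 0.23, SE, adjusted p = 0.00455), and both calls held with each library left out in turn.

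The members that did not pass were Psmd2, the scaffold of the base (0.29 ± 0.16, SE, adjusted p = 0.153), Psmd3 of the lid (0.58 ± 0.24, adjusted p = 0.0673) and Psmd4, a ubiquitin receptor (0.61 ± 0.27, adjusted p = 0.0901). Psmd3 passed with upper quartile scaling (0.70), the stricter filter (0.67), tailless rows removed (0.66), DESeq2 (0.63) and without tumor 5 (0.68). Psmd4 passed without tumor 6 (0.82), and Psmd2 under no alternative. In all 17 genes of the particle, Psmd2, Psmd3 and Psmd4 included, every tumor was above both normal libraries, as in 37.4% of all tested genes. Psmd2 had 219 to 283 CPM in tumors against 198 and 205 CPM in normal lung. The count of 14 called genes rests on few libraries, since it was 4 without normal 1, 5 without normal 2, 8 without tumor 3 and 10 without tumor 4. Psmc6, Psmd6, Psmd12 and Psmd14 passed in each of these.

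The dedicated chaperones that put the alpha ring together rose strongly. Psmg4 had 60.2, 57.2, 38.9 and 54.7 CPM in tumors 3 to 6 against 6.71 and 7.72 CPM in normal lung (2.87 ± 0.25, SE, adjusted p = 0.000167), the largest log2 fold change among the members outside the 4 set apart. Its partner Psmg3 had 29.3, 40.2, 19.7 and 22.9 CPM against 8.34 and 9.0 CPM (1.69 ± 0.34, SE, adjusted p = 0.00472). Psmg1 and Psmg2 pair with each other. Psmg1 had 41.5, 38.9, 26.3 and 32.1 CPM in tumors against 8.15 and 8.56 CPM (2.05 ± 0.25, SE, adjusted p = 0.000621). Psmg2 had 41.0, 42.9, 33.9 and 38.9 CPM in tumors against 11 and 11.9 CPM (1.77 ± 0.18, SE, adjusted p = 0.000331). All 4 chaperones of the core passed with each library left out.

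The chaperones of the 19S base moved less. Psmd9 rose by 0.82 ± 0.25 (SE, adjusted p = 0.0262), and missed the threshold without normal 1 (0.79), normal 2 (0.81) or tumor 3 (0.75). Psmd10, known as gankyrin in cancer, was at 0.62 ± 0.27 (adjusted p = 0.0834) and Psmd5 at 0.07 ± 0.21 (adjusted p = 0.779), with 38.0 to 60.4 CPM in tumors and 48.9 and 47.8 CPM in normal lung. Psmd10 passed without tumor 6 (0.82, adjusted p = 0.0367).

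The regulators outside PA28 alpha and beta were mixed. Psme3, the nuclear PA28 gamma, had 84.2, 116, 79.9 and 99.7 CPM in tumors 3 to 6 against 53.6 and 53.0 CPM in normal lung (0.83 ± 0.20, SE, adjusted p = 0.00927), so it was higher in each tumor while its relatives Psme1 and Psme2 were not. Psme4, the activator PA200, had 172, 217, 238 and 246 CPM in tumors against 129 and 119 CPM (0.81 ± 0.19, SE, adjusted p = 0.00933). Neither passed once a normal library was left out, at 0.83 for Psme3 and 0.86 for Psme4 without normal 1, and at 0.81 and 0.74 without normal 2. Psme4 was lowest in tumor 3 and highest in tumor 6, whereas Psmb8, Psmb9, Psme1 and Psme2 were highest in tumor 3 and lowest in tumor 6. Psmf1, an inhibitor of the core in vitro, had 22.7, 41.3, 28.4 and 24.9 CPM in tumors against 31.9 and 31.5 CPM in normal lung (-0.11 ± 0.27, SE, adjusted p = 0.726), with no separation of the groups. Its sign was not stable, at 0.00 with upper quartile scaling and 0.04 without tumor 6.

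Of the 4 rows set apart, Psme2b, a near copy of Psme2, had 0.820, 0.393, 0.586 and 0.464 CPM in tumors 3 to 6 against 9.27 and 10.3 CPM in normal lung (-4.11 ± 0.38, SE, adjusted p = 0.000214). Reads can be split between such copies and its exons overlap another gene in GRCm38, so this value is uncertain. Psmc3ip, which matches the symbol rule but works in meiotic and homologous recombination, had 28.9, 26.8, 24.1 and 23.7 CPM in tumors against 3.55 and 4.07 CPM, rose by 2.76 ± 0.22 (adjusted p = 0.000131), and its exons overlap those of Mlx. Psma8, the alpha subunit of the testis, had at most 0.236 CPM in a tumor and 0.975 and 0.723 CPM in normal lung (-2.30 ± 0.62, adjusted p = 0.0162), a call lost without normal 1 (-2.07) or normal 2 (-2.51). Psmb11, the catalytic subunit of the thymus, had 30, 4, 31 and 7 counts in tumors and 0 in both normal libraries. With 3 counts in all standing for the empty normal group, it was at least 17.5-fold higher in tumors, a limit of counting error only. It passed the filter on low counts only through tumors 3 and 5, where it was highest. Its call (adjusted p = 0.0109) is therefore not support for a difference, and was lost without normal 1. At 0.447 CPM or less Psmb11 stayed far below Psmb5 in every tumor.

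Proteasome genes without a Psm symbol moved with the particle. Of 9 tested, 7 rose and none fell, against 31.3% of all tested genes called higher. Their median log2 fold change was 0.76, and fewer of them were called once a normal library was left out. The list was written with earlier results of these data known. Usp14, a deubiquitinase bound to the particle, had 179, 168, 156 and 161 CPM in tumors 3 to 6 against 70.3 and 72.2 CPM in normal lung (1.22 ± 0.14, SE, adjusted p = 0.000469). Uchl5, another such enzyme, had 60.5, 114, 52.3 and 59.5 CPM against 16.8 and 17.7 CPM (2.05 ± 0.37, SE, adjusted p = 0.00296), and Txnl1, a thioredoxin-like protein of the particle, rose by 0.99 ± 0.17 (adjusted p = 0.00273). Exons of Usp14 and Txnl1 overlap other genes on the opposite strand in GRCm38. Among the partner genes named below, so do exons of Ngly1, Rps27a, Jak1, Irf1, Nlrc5, Tap1, Tap2, Tapbp and Erap1. Exons of Ddi2, Irf9 and Ifng overlap another gene on the same strand. The values with an opposite-strand overlap are uncertain in the same way as that of Psmb9. Those with a same-strand overlap are uncertain whatever the strand setting. Pomp, the maturation factor of the core, was at 0.76 ± 0.32 (adjusted p = 0.0772) and passed with the stricter filter (0.85) and without tumor 5 (0.90) or tumor 6 (0.98).

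Of 12 genes that regulate subunit transcription or carry substrates to the proteasome, 3 fell, 3 rose and 6 did not pass, shares below the 32.6% called lower and 31.3% called higher over all tested genes. Those that fell were Nfe2l2, Ngly1 and Nfe2l1. Nfe2l1, which drives the recovery of subunit transcripts after proteasome inhibition, had 64.1, 78.4, 75.4 and 104 CPM in tumors 3 to 6 against 377 and 346 CPM in normal lung (-2.17 ± 0.20, SE, adjusted p = 0.000227). Nfe2l2, its relative in the oxidative stress response, had 23.1, 33.2, 28.1 and 18.6 CPM against 252 and 241 CPM (-3.26 ± 0.24, SE, adjusted p = 8.95e-05). Ngly1, the enzyme that removes sugar chains from Nfe2l1 protein to activate it, was at 20.5, 18.2, 17.4 and 18.9 CPM against 62.5 and 61.0 CPM (-1.72 ± 0.14, SE, adjusted p = 0.000148). For all 3 every tumor lay below both normal libraries, as in 39.8% of all tested genes. These are transcript levels, and Nfe2l1 is controlled largely at the protein.

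Ddi2 and Vcp, the protease and the extraction ATPase of the same route, did not pass (log2 fold changes -0.22 and -0.03, adjusted p = 0.688 and 0.876), and the sign of Vcp turned to 0.03 with RLE factors and 0.09 with upper quartile scaling. The 3 that rose carry ubiquitylated proteins to the proteasome: Ubqln2 (1.25 ± 0.27, SE, adjusted p = 0.00631), Rad23b (0.71 ± 0.16, adjusted p = 0.00857) and Ubqln4 (0.68 ± 0.18, adjusted p = 0.0161). Without normal 1 only Ubqln2 of these passed, and without normal 2 none did (1.17, 0.70 and 0.72).

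Rps27a, which fuses ubiquitin to a ribosomal protein, stood at 1500, 2060, 1230 and 1710 CPM in tumors 3 to 6 against 158 and 180 CPM in normal lung (3.26 ± 0.29, SE, adjusted p = 0.000186). Every tumor was above both normal libraries, but the gene has many processed copies with which reads can be shared. Ubb, a polyubiquitin gene, did not pass at -0.14 ± 0.23 (SE, adjusted p = 0.621), and its sign turned to 0.03 without tumor 6. Uba1 and Uba6, the activating enzymes, did not pass either (0.18 and 0.34).

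**Figure D5:**
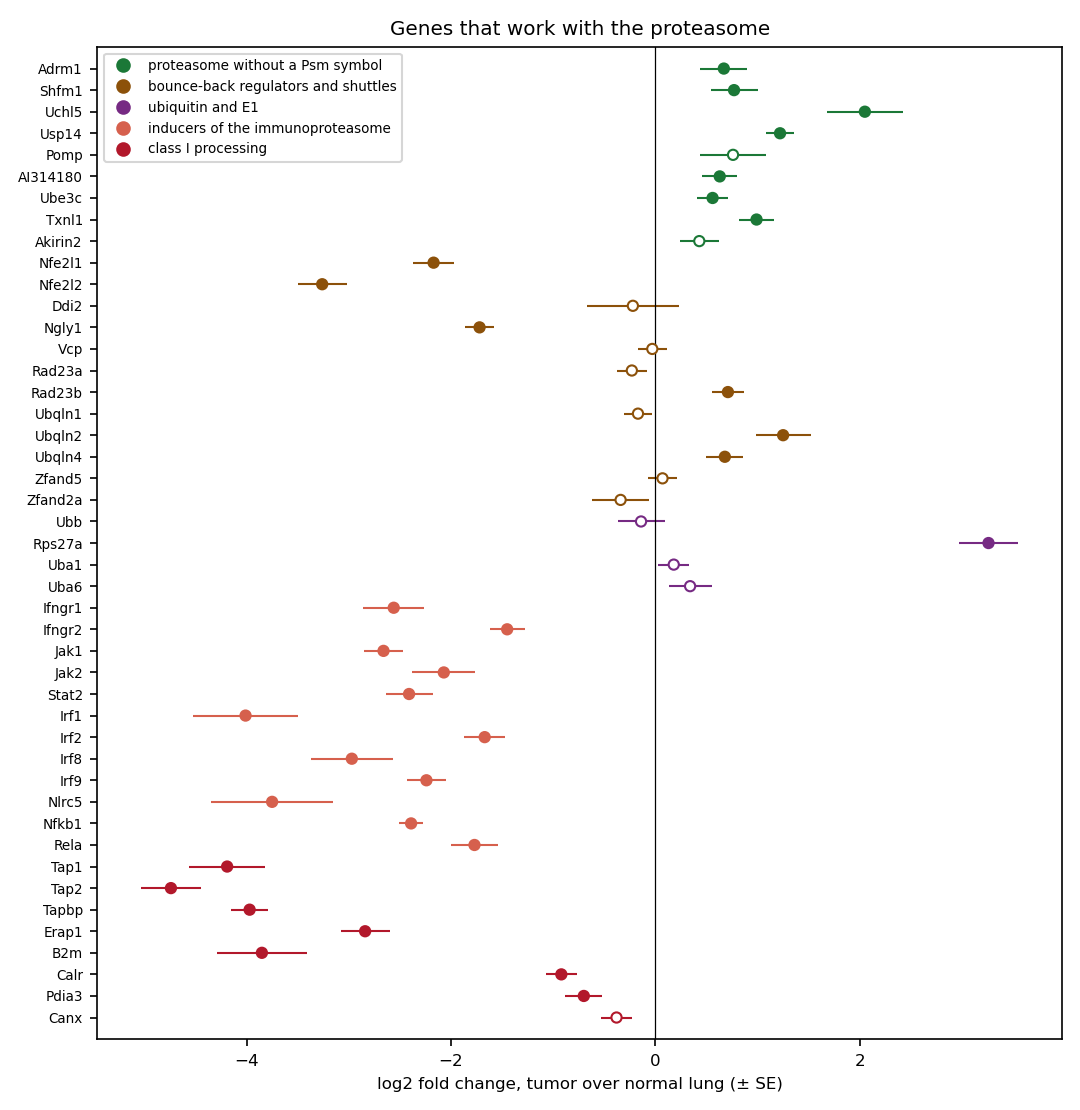
Log2 fold change, tumor over normal lung, with standard error, of genes that work with the proteasome, grouped by list. Filled points passed the test at an adjusted p under 0.05 and open points did not. The inducers of the immunoproteasome shown and all but Canx of the class I genes lie left of 0 as filled points, and Nfe2l1 and Nfe2l2 stand at -2.17 and -3.26.

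All 13 tested genes of the interferon and NF-kB routes that induce the immunoproteasome fell, with a median of -2.41, against 32.6% of all tested genes called lower. By smallest p they were led by Nfkb1, the NF-kB subunit, at 29.9, 29.0, 30.9 and 29.4 CPM in tumors 3 to 6 against 162 and 150 CPM in normal lung (-2.39 ± 0.12, SE, adjusted p = 3.47e-05), by Jak1, the kinase of interferon receptors (-2.66 ± 0.19, adjusted p = 7.82e-05), and by Irf9 (-2.24 ± 0.19, adjusted p = 0.000159). Named after their values were seen, Irf1, a transcription factor of the interferon response, had 11.8, 11.2, 10.8 and 2.86 CPM in tumors against 141 and 154 CPM. Nlrc5, the class I transactivator, had 3.90, 0.687, 1.81 and 1.60 CPM in tumors against 26.5 and 27.5 CPM. Ifng itself had at most 0.102 CPM in any library and was not tested. Leukocyte and endothelial markers fell with these genes, and their part in the fall was not tested.

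Of 8 class I processing genes 7 fell, against 32.6% of all tested genes called lower. Those with the smallest p were Tapbp (-3.97 ± 0.18, SE), Tap2 (-4.74 ± 0.29) and Erap1 (-2.84 ± 0.24), each below the log2 fold change of Psmb10 and of both PA28 genes. Tap1, the neighbour of Psmb9, named after its values were seen, had 5.54, 2.24, 3.92 and 2.71 CPM in tumors 3 to 6 against 63.5 and 67.9 CPM in normal lung.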

How the data were processed

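Poly(A)-selected RNA of flash-frozen tissue was sequenced from NEBNext Ultra II libraries, per the labels' protocols. The authors deposited raw gene counts made with TPMCalculator, per the labels. The submitters' processing notes also list STAR 2.5.4a, Trimmomatic 0.36, R 3.5.1, Trim Galore and DESeq2 1.22.2, with the build mm9 and no role or order. The sources used here do not give the annotation or the strand setting, so reads of near-identical or overlapping genes cannot be told apart. Of counts from 1 to 10, 61.2% were even. Each library names its own mouse, all in batch 1, so p-values measure the spread between mice, and every pair of libraries differed by more than sampling noise.

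Counts of 4 tumor and 2 normal libraries were tested in R 4.3.3 with edgeR 4.0.16, by its quasi-likelihood test of tumor against normal without covariates. Low genes were removed by filterByExpr (count 10, total 15) and libraries scaled by TMM. Adjustment was by Benjamini-Hochberg across all 18027 genes tested (threshold 0.05). The SE is the log2 fold change over the square root of F. CPM used TMM-scaled library sizes, and a floor of 3 counts stood for 0. Pair ratios added 0.5 to each count. Exon lengths and overlaps came from GENCODE on GRCm38, promoters from RefSeq.

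Every member is accounted for. Described with values in each library are the immunoproteasome, PA28 and constitutive catalytic genes, and the 3 of smallest p in other classes, with up to 3 per direction of each partner list. Some genes of the partner lists are counted but not reported by name here. Members and lists were chosen with earlier results of these data known. Likeness to Psmb8 is not given, because the libraries form 2 clusters. The test was checked on simulated data. Alternatives were RLE factors, upper quartile scaling, total counts, no filter, a stricter filter (1 CPM in every library of a group), removal of 1031 rows of small or tailless RNA, DESeq2 1.42.0, limma 3.58.1 with voom, and leaving out each library. Their use on partner genes was added after the data were seen.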

Additional observations from a re-analysis of the deposited data

Results flagged for a closer look

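Among 113 members, partner genes, sums and ratios examined in the 4 tumors, 4 had a tumor far from the others by Dixon's criterion. Chance meets this criterion in about 1 of 20 groups, so 4 of 113 are no more than chance would give. The summed inducible catalytic genes stood at 47.5 CPM in tumor 3, against 27 to 28.6 CPM in the others. Uchl5 stood at 114 CPM in tumor 4 against 52.3 to 60.5 CPM, Ifngr1, a chain of the interferon gamma receptor, at 50.2 CPM in tumor 3 against 25.6 to 28.3 CPM, and Irf1 at 2.86 CPM in tumor 6 against 10.8 to 11.8 CPM.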

How the results depend on the processing

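Each alternative except leaving out a library kept the number of genes called within 1.5 times the reported one in the immunoproteasome and PA28, core, 19S and other regulator classes, whereas the stricter filter called 1 higher and 1 lower of the 4 set-apart genes, against 2 and 2, because it tested 2 of them, and upper quartile scaling, which shifted the median of all genes by 0.12 on the log2 scale, turned the sign of no called member. Of 398 refitted values of single members under these alternatives 389 kept direction and call, and of 298 with a library left out 242 did. The sign turned for Psmf1, to 0.00 with upper quartile scaling and 0.04 without tumor 6 (-0.32 to 0.04 with a library left out), and for Psmd5, to -0.02 without tumor 4 (-0.02 to 0.28). Among partner genes, the sign of Vcp turned to 0.03 with RLE factors, 0.09 with upper quartile scaling, 0.06 with the stricter filter, 0.05 with tailless rows removed, 0.02 with DESeq2, 0.02 without tumor 3 and 0.05 without tumor 6 (-0.05 to 0.05 with a library left out), and that of Ubb to 0.03 without tumor 6 (-0.32 to 0.03), none of them called.

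With each library left out in turn, genes called higher over the whole table ran from 3373 to 5912 and genes called lower from 4278 to 6167. The immunoproteasome and PA28 genes called lower ran from 3 to 5, core genes called higher from 9 to 14, 19S genes from 4 to 15, and other regulators and chaperones from 4 to 8. The immunoproteasome and PA28 count moved only without tumor 3, where it was 5. The other low ends fell without a normal library, where the spread of the remaining one was taken from the tumors. Without tumor 3, 8 of the 19S genes were called. The difference between groups ran from -5.14 to -4.69 in the log2 ratio of Psmb8 to Psmb5, from -5.47 to -4.96 in the log2 ratio of Psmb9 to Psmb6 and from -3.18 to -2.95 in the log2 ratio of Psmb10 to Psmb7, and pseudocounts of 0 and 10 moved none by more than the spread between tumors. Psma8 and Psmb11 were not tested with the stricter filter, and Psmb11 not without tumor 3 or tumor 5. No paired analysis was possible because the groups share no replicate number. Depth limits Psma8 and Psmb11, with at most 96 counts in a library.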
